A study of Mus musculus with 4 samples.

Results

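Beige and classical brown adipocyte markers are genes used to tell apart the heat-producing cells of fat. The 10 genes described here were chosen by name from the deposited table of 51912 genes. They comprise 5 beige markers (Tmem26, Tnfrsf9, Tbx1, Slc36a2 and P2rx5), 3 classical brown markers (Zic1, Lhx8 and Mpzl2) and 2 markers shared by both cell types (Kcnk3 and Otop1). Each symbol matched 1 row of the table. RNA was sequenced from the subcutaneous white fat of C57BL/6 mice aged 8 weeks. The mice were given either BML-260, which inhibits the phosphatase DUSP22, or the vehicle dimethyl sulfoxide (DMSO). Each treatment has 2 libraries, named A and B. Strain, age and depot were the same in both groups, and no source used here gives the dose, route or duration. The design mentions 8 mice, with 4 for each treatment, but not how they map onto the 4 libraries. The p-values therefore reflect the spread between libraries only, and part of that spread may be technical.

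Classical brown adipocytes sit in dedicated depots such as the interscapular one and arise from a lineage close to skeletal muscle. Beige adipocytes appear inside white depots, above all the subcutaneous one, when mice are exposed to cold or to adrenergic stimulation. Both cell types burn fuel through UCP1, and the genes described here were proposed as a way to say which of them a tissue holds. By their products the markers fall into membrane channels and transporters (Otop1, Kcnk3, Slc36a2 and P2rx5), other surface proteins (Tmem26, Tnfrsf9 and Mpzl2) and transcription factors of development (Tbx1, Zic1 and Lhx8). Several were described as beige markers in some studies and as general thermogenic markers in others, so the class names are those of the list and not a property measured here.

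Of the 10 markers, Otop1 and Tbx1 stood out by their distance between treatments. Otop1 lay 2.86-fold higher with BML-260 (95% interval 2.09 to 3.92) and Tbx1 2.32-fold higher (1.35 to 3.98), each from 2 libraries against 2. The most abundant markers by FPKM, Slc36a2 and Kcnk3, did not share that direction, with fitted folds of 0.832 and 0.863. The classical brown markers Lhx8 and Mpzl2 had folds of 0.826 and 0.988. Zic1 had between 1 and 16 reads per library. In the edgeR quasi-likelihood test over all genes, 0 markers had an adjusted p under 0.05, as against 0.00639% of the 15643 genes tested. At an unadjusted p under 0.05 the test counted 2 of the 9 tested markers, both higher with BML-260, where 11.1% of all tested genes passed that threshold (7.45% higher and 3.61% lower). The count was 1 of 10 (Otop1) without vehicle A, where 5.55% of all tested genes passed, and 5 of 9 without BML-260 B, where 18.4% passed. DESeq2 called 1 marker, Otop1, at an adjusted p of 0.05, beside 2.69% of all genes in either direction and 2.17% higher with BML-260. limma-voom called 0, with 0.00639% of all genes called.

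The promoters of the 3 markers with the smallest unadjusted p are shown because the results turn most on these genes. RefSeq promoter windows on GRCm38.p6, from 250 bases before to 50 after a RefSeq start, were at hand for 6 of the 10 markers. The windows lie at chr5:38277154-38277453 on the plus strand for Otop1, at chr16:18590622-18590921 on the minus strand for the upstream of the RefSeq starts of Tbx1, and at chr10:68723496-68723795 on the plus strand for Tmem26. Capitals mark matches, on either strand, to any of the motifs searched.
Otop1: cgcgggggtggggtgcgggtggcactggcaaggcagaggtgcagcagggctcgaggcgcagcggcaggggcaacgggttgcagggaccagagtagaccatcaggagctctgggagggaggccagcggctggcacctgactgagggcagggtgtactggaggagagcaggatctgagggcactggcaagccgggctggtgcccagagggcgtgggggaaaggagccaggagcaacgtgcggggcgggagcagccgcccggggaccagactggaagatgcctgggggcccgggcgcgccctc
Tbx1: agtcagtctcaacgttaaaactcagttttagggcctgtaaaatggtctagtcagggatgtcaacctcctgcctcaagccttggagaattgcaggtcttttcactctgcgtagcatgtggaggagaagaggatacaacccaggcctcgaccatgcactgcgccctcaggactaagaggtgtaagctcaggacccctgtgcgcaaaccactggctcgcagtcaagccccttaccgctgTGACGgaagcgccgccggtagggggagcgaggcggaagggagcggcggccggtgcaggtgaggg
Tmem26: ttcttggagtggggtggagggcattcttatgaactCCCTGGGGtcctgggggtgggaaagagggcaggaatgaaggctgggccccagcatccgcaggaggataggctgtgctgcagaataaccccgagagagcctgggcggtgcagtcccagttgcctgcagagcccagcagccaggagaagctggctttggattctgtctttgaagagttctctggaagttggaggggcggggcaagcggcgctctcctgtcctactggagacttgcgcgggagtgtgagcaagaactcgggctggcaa

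The motifs searched were the cyclic AMP response element TGACGTCA and its shorter form TGACG, which overlaps it, the NR4A element AAAGGTCA and the nuclear receptor site AGGTCA, which overlaps it, and the EBF core CCCNNGGG. The Tbx1 window shown held 1 match to TGACG, which opens 14 bases before the start. The other RefSeq window of Tbx1, not shown, also held 1 match to TGACG. That motif occurs in 20.8% of all 32851 promoter windows. The Tmem26 window held 1 match to the EBF core, which occurs in 13.7% of all windows. None of these letters was found in the Otop1 window. That window lies inside the gene's GENCODE bounds, which open at 38275972, and bases before that position were not searched. The full element TGACGTCA, AAAGGTCA and AGGTCA occur in 1.79%, 1.51% and 16.3% of all windows. A match of letters is a description and not a binding site.

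The 4 libraries held between 19999836 and 23726781 expected counts. Levels are given as CPM, reads scaled to library size with TMM factors, which allow a gene to be compared between libraries but not with another gene. All 6 adipocyte markers were well expressed. Their summed level was 15863 and 21568 CPM in BML-260 A and B, against 23256 and 20988 CPM in vehicle A and B, so BML-260 A was the lowest. Markers of other tissues differed strongly between libraries. The 12 skeletal muscle markers summed to 30776 and 47779 CPM in BML-260 A and B, against 384 and 11057 CPM in vehicle A and B. The 13 T and NK cell markers summed to 129 and 22.3 CPM in BML-260 A and B, against 15.7 and 34.9 CPM in vehicle A and B, and the 8 B cell markers to 182 and 3.01 CPM, against 1.80 and 2.68 CPM. The muscle markers were thus high in both BML-260 libraries and the lymphocyte markers in BML-260 A. These sums are set beside the marker results below.

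**Figure D1:**
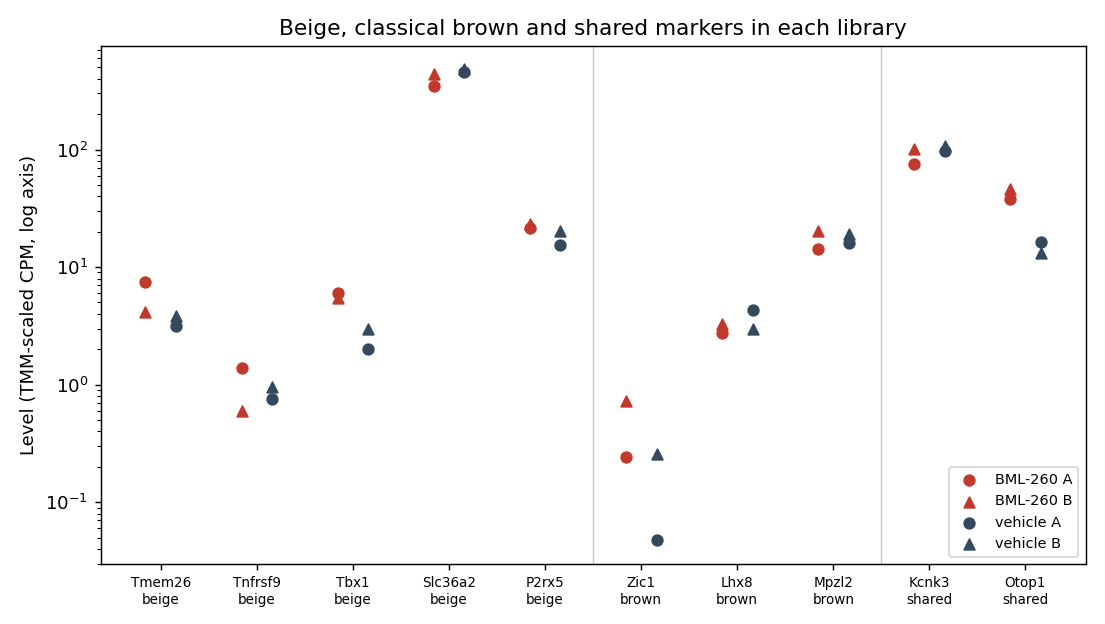
Level of each marker (TMM-scaled CPM, log axis) in the 4 libraries, with BML-260 libraries in red left of vehicle libraries in dark blue, circles for library A and triangles for library B. Otop1 lies at 37.7 and 46.4 CPM with BML-260, above 16.3 and 13.1 CPM with vehicle, and Tbx1 is likewise apart, whereas the points of Kcnk3, Mpzl2, Lhx8, Tnfrsf9 and Zic1 overlap.

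Otop1 encodes otopetrin 1, a proton channel, and is expressed in brown and beige fat. The gene (ENSMUSG00000051596) is protein coding and lies on chromosome 5 at 38275972 to 38304217 of GRCm38. It had 37.7 and 46.4 CPM in BML-260 A and B, against 16.3 and 13.1 CPM in vehicle A and B, from 782 and 1019 reads against 343 and 304. The lower of the BML-260 libraries was above the higher of the vehicle libraries by a wide margin. The mean was 42.0 ± 6.20 CPM with BML-260 and 14.7 ± 2.22 CPM with vehicle (SD, n = 2 each). The log2 fold change was 1.52 (SE 0.18), with an unadjusted edgeR p of 2.96e-04 and an adjusted one of 0.216. DESeq2 gave 1.51 (SE 0.24) with an adjusted p of 1.76e-07. The authors' deposited table lists Otop1 as significant, with a log2 fold change of 1.33 and an adjusted p of 2.48e-07, where 0.688% of its genes pass an adjusted p of 0.05. edgeR also called it without a filter on low counts (adjusted p = 5.44e-04), where 651 of 24481 genes were called. With scaling to adipocyte markers, which raised the median of all tested genes by 0.27 and called 33 genes, its edgeR adjusted p was 0.0417. Whether Otop1 is called therefore depends on the tool, the filter and the scaling. Its estimate stayed between 1.35 and 1.65 when each library was left out in turn. Its estimate without BML-260 A, the library with high lymphocyte markers, was 1.64. Muscle markers were also higher in both BML-260 libraries, and their part in the level of Otop1 was not tested. Its relatives Otop2 and Otop3 had 0 counts in all 4 libraries.

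Kcnk3, the other shared marker, encodes TASK-1, an acid-sensitive potassium leak channel that sets the resting membrane potential and is enriched in thermogenic adipocytes. Its gene is on chromosome 5 at 30588170 to 30625271. Its level was 75.7 and 101 CPM in BML-260 A and B, against 97.6 and 107 CPM in vehicle A and B. The groups overlapped, and BML-260 A alone lay apart from the other libraries. BML-260 over vehicle gave a log2 fold change of -0.21 (SE 0.17, 95% interval -0.65 to 0.22, edgeR adjusted p = 0.678). That estimate became -0.04 once BML-260 A was left out and -0.44 once BML-260 B was. The size of this difference therefore rests on BML-260 A, the library with the lowest adipocyte marker sum. With libraries scaled to their adipocyte markers the estimate was 0.024, but that scaling raised the median of all tested genes by 0.27. Kcnk3 shares 229 exonic bases with Gm9899 on the opposite strand, and since the strand setting was not given, reads there cannot be assigned with certainty.

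Slc36a2 encodes PAT2, a proton-coupled amino acid transporter at the surface of brown and beige adipocytes. The gene, on chromosome 11 at 55158470 to 55185077, had 346 and 436 CPM in BML-260 A and B, against 459 and 480 CPM in vehicle A and B. Both BML-260 libraries were below both vehicle libraries, with more distance within the BML-260 group (1.26-fold) than within the vehicle group (1.05-fold). The log2 fold change was -0.26 (SE 0.19, 95% interval -0.74 to 0.21, edgeR adjusted p = 0.636), or -0.12 without BML-260 A. Set against the summed adipocyte markers of the same library, the groups overlapped, with 21.8 and 20.2 CPM of Slc36a2 per 1000 CPM of adipocyte markers in BML-260 A and B, against 19.7 and 22.9 in vehicle A and B. Scaling libraries to those markers raised the median of all tested genes by 0.27, so the shift is not particular to Slc36a2. In bulk tissue, fewer cells of a type and less RNA per cell cannot be told apart.

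P2rx5 encodes an ATP-gated cation channel, also known from lymphocytes and muscle. The gene, on chromosome 11 at 73160421 to 73172685, had 21.6 and 23.1 CPM in BML-260 A and B, against 15.5 and 20.2 CPM in vehicle A and B. The groups did not overlap, but the gap between BML-260 A and vehicle B was smaller than the gap between the vehicle libraries. The log2 fold change was 0.32 (SE 0.17, 95% interval -0.12 to 0.76, edgeR adjusted p = 0.553). The estimate was 0.12 without vehicle A, the library with the lowest muscle markers, and 0.36 without BML-260 A, the library with high lymphocyte markers. The part of muscle transcripts in this value was not tested.

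Tmem26 encodes a transmembrane protein used as a surface marker of beige precursors and adipocytes. It lies on chromosome 10 at 68723646 to 68782650. It had 7.51 and 4.15 CPM in BML-260 A and B, against 3.18 and 3.80 CPM in vehicle A and B, from 156 and 91 reads against 67 and 88. The groups did not overlap, yet BML-260 B was closer to the vehicle libraries than to BML-260 A. The log2 fold change was 0.74 (SE 0.36, 95% interval -0.19 to 1.66, edgeR adjusted p = 0.515). Leaving out BML-260 A gave 0.23 and leaving out BML-260 B gave 1.099, so 1 library set its size.

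Tnfrsf9 encodes CD137, also called 4-1BB, a receptor of the tumour necrosis factor family that serves as a surface marker of beige cells and as a costimulatory receptor of activated T and NK cells. It lies on chromosome 4 at 150914562 to 150946102. It had 29 and 13 reads in BML-260 A and B, against 16 and 22 in vehicle A and B, or 1.40 and 0.592 CPM against 0.759 and 0.951 CPM. The BML-260 libraries enclosed the vehicle libraries. The log2 fold change was 0.21 (SE 0.55, 95% interval -1.19 to 1.61, edgeR adjusted p = 0.909), which at this depth leaves a change of up to 3.05-fold in the interval. The estimate was -0.54 with BML-260 A left out and 0.70 with BML-260 B left out. BML-260 A, where Tnfrsf9 was highest, was also the library with the highest T and NK and B cell markers. The part of lymphocytes in the level of Tnfrsf9 was not tested.

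Mpzl2 encodes EVA1, an adhesion protein of the immunoglobulin superfamily first known from thymus epithelium and listed as a classical brown marker. The gene, on chromosome 9 at 45039799 to 45054015, had 14.4 and 20.4 CPM in BML-260 A and B, against 15.9 and 19.2 CPM in vehicle A and B. The BML-260 libraries enclosed the vehicle libraries here too. The estimated log2 fold change was -0.02 (SE 0.22, 95% interval -0.58 to 0.54, edgeR adjusted p = 0.984). It was 0.20 without BML-260 A, 0.12 without vehicle B and 0.21 with libraries scaled to adipocyte markers. The same scaling raised the median of all tested genes by 0.27. Mpzl2 shares 2138 exonic bases with Gm48840 on the opposite strand, which makes its count uncertain for the same reason as that of Kcnk3. Of the 9 epithelial markers 6 were too low to be tested, 1 was at 0 in every library, and their sum was between 3.08 and 5.89 CPM in all libraries.

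Tbx1 encodes a T-box transcription factor best known from heart and pharyngeal development and was among the earliest beige markers. The gene (ENSMUSG00000009097) lies on chromosome 16 at 18580979 to 18590671. It had 6.07 and 5.51 CPM in BML-260 A and B, against 1.99 and 2.98 CPM in vehicle A and B, from 126 and 121 reads against 42 and 69. The BML-260 libraries lay close together and above both vehicle libraries, which differed from each other by 1.5-fold. The log2 fold change was 1.21 (SE 0.31), with an unadjusted edgeR p of 0.00979 and an adjusted one of 0.345. DESeq2 gave 1.21 with an adjusted p of 0.139, and the authors' deposited table gives 0.83 with an adjusted p of 0.168. The unadjusted p was lost only without vehicle A among the libraries left out in turn, where the log2 fold change was 0.93. Vehicle A, with the lowest Tbx1, was also the library with the lowest skeletal muscle markers. The part of muscle transcripts in the level of Tbx1 was not tested.

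Zic1 encodes a zinc finger transcription factor and is a common marker of classical brown fat. It lies on chromosome 9 at 91358058 to 91365810. It had 5 and 16 reads in BML-260 A and B, against 1 and 6 in vehicle A and B, too few to enter the test. The highest library was BML-260 B, and BML-260 A and vehicle B were nearly equal. Summed per group there were 21 reads with BML-260 (95% Poisson interval 13.0 to 32.1) and 7 with vehicle (2.81 to 14.4). The ratio scaled to library size was 3.10 (1.27 to 8.64), an interval that covers counting error only and not the spread between libraries. Without a filter on low counts its edgeR adjusted p was 0.718. The authors' deposited table lists Zic1 as no change, with a log2 fold change of 0. Zic1 lies beside Zic4, with which it shares 60 exonic bases, and Zic4 had 2 reads in BML-260 B and 0 in the other libraries.

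Lhx8 encodes a LIM homeobox transcription factor known from forebrain and tooth development and listed with Zic1 as a classical brown marker. It lies on chromosome 3 at 154306294 to 154330659. It had 57 and 72 reads in BML-260 A and B, against 91 and 69 in vehicle A and B, or 2.74 and 3.28 CPM against 4.32 and 2.98 CPM. The groups overlapped, and vehicle A alone was high. The log2 fold change was -0.28 (SE 0.32, 95% interval -1.09 to 0.54, edgeR adjusted p = 0.782), or -0.01 without vehicle A.

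**Figure D2:**
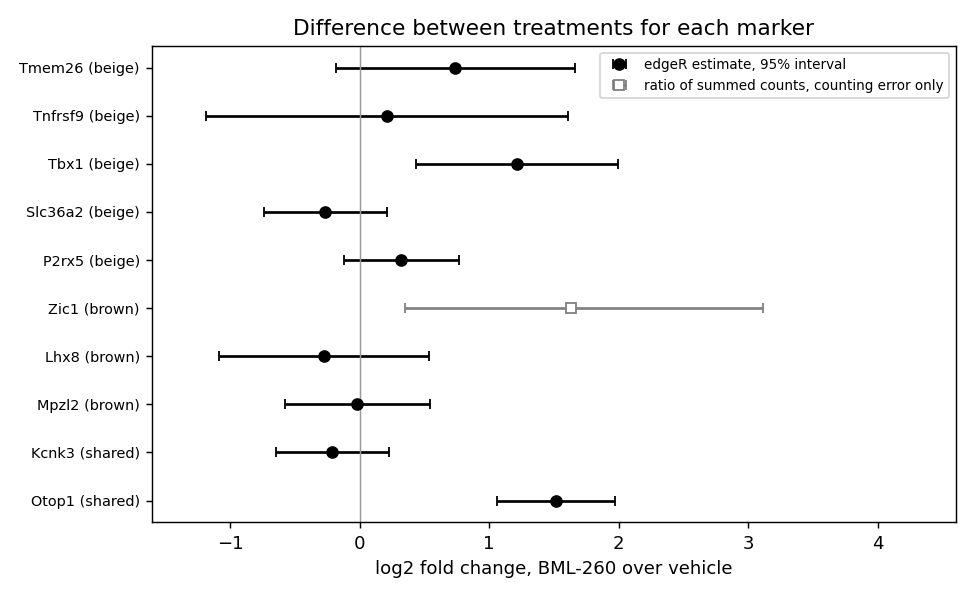
log2 fold change of each marker, BML-260 over vehicle, with its 95% interval from the edgeR fit (filled circles, 2 libraries per group). Zic1, which was not tested, is shown as the ratio of summed counts with an interval for counting error only (open square). The intervals of Otop1 (1.06 to 1.97) and Tbx1 (0.44 to 1.99) lie above 0, and those of the other 7 tested markers include 0.

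The groups did not overlap for 5 of the 9 tested markers, 4 higher with BML-260 (Otop1, Tbx1, Tmem26 and P2rx5) and 1 lower (Slc36a2). In all tested genes 44.3% did not overlap, 22.9% higher and 21.5% lower. Over both directions together the markers' share was near the background. More of the markers were higher than lower, which was not tested and rests on few genes. The median log2 fold change of the 9 was 0.21, against 0.02 over all tested genes. The markers' median became 0.030 when vehicle A was left out and 0.38 when vehicle B was. Of the 5 beige markers 4 had estimates above 0, as did 52.5% of all tested genes, with a median of 0.32. One of these, Tnfrsf9, had an estimate of -0.54 when BML-260 A was left out, and the authors' deposited table lists it at -0.07. Both tested classical brown markers had estimates below 0. That of Mpzl2 turned above 0 when BML-260 A or vehicle B was left out. It also did so with scaling to adipocyte markers, which raised the median of all tested genes by 0.27. With 2 classical brown markers tested, and 1 left untested, this is a description of single genes. The difference between the classes was not tested.

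**Figure D3:**
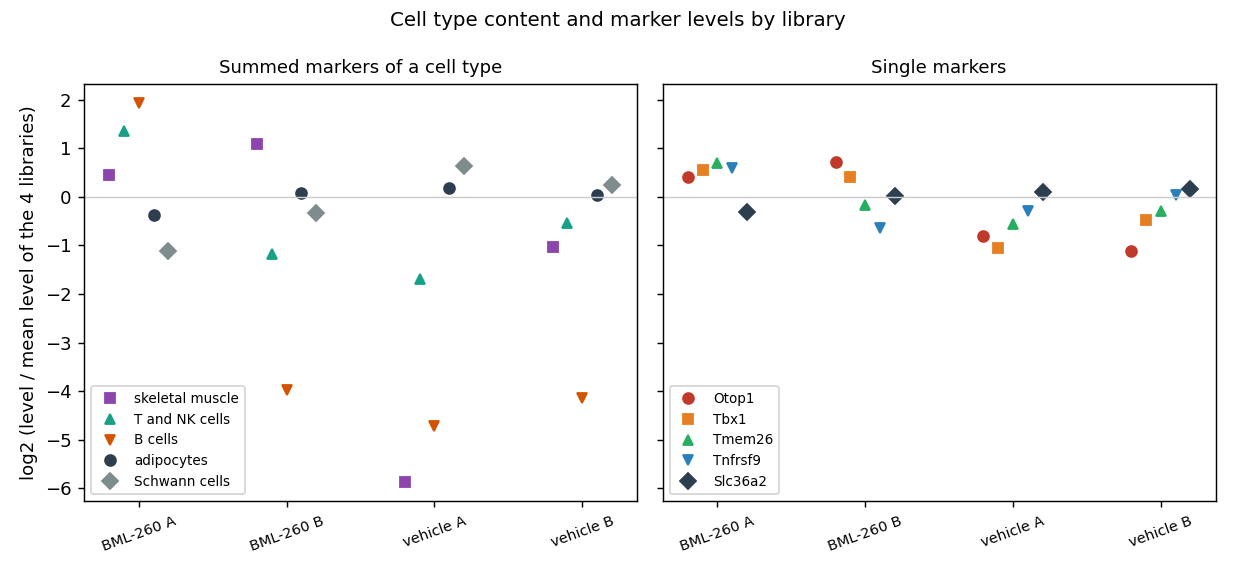
Summed level of the markers of 5 cell types (left) and level of 5 single markers (right) in each library, as the log2 of the level over its mean in the 4 libraries. Skeletal muscle is lowest in vehicle A. Lymphocyte markers of every kind shown are highest in BML-260 A, where Tmem26, Tnfrsf9 and Tbx1 also have their highest values. Otop1 is highest in BML-260 B and Slc36a2 in vehicle B.

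To compare levels between markers, the deposited FPKM values are used, which are scaled to transcript length. In vehicle libraries the order by mean FPKM ran from Slc36a2 (172), Kcnk3 (30.2), P2rx5 (8.59), Mpzl2 (6.36), Otop1 (5.25), Lhx8 (2.57), Tbx1 (1.69), Tnfrsf9 (1.02) and Tmem26 (0.803) to Zic1 (0.035). Mpzl2 and Otop1 overlapped, as did Tnfrsf9 and Tmem26, and the other neighbours did not. With BML-260 the means were 144 for Slc36a2, 25.4 for Kcnk3, 14.6 for Otop1, 10.6 for P2rx5, 6.26 for Mpzl2, 3.74 for Tbx1, 2.31 for Lhx8, 1.29 for Tmem26, 1.01 for Tnfrsf9 and 0.362 for Zic1. Otop1 thus lay above P2rx5 and Mpzl2, and Tbx1 above Lhx8, in both BML-260 libraries. Tmem26 overlapped with Tnfrsf9, and Tnfrsf9 with Zic1. FPKM of the rarest markers needs care, since the FPKM per CPM, which would be constant if each library used a single length for the gene, varied 10.2-fold between libraries for Zic1 and 1.63-fold for Tnfrsf9, against at most 1.29-fold for the other 8.

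Ucp1, the uncoupling protein that defines thermogenic fat, had 251 and 263 CPM in BML-260 A and B, against 7.88 and 9.68 CPM in vehicle A and B. It was the only gene past an adjusted p of 0.05 in the edgeR test. Slc36a2 and Kcnk3 were thus abundant in the vehicle libraries in which Ucp1 was low. At an unadjusted p under 0.05, 12 of the 15 core thermogenic genes were higher with BML-260 and 1 was lower, with a median log2 fold change of 1.36. Of all tested genes 7.45% were higher and 3.61% lower at that threshold. The thermogenic list and the others below were drawn up with earlier results of these data known. Besides Ucp1, the smallest p-values belonged to Dio2 (log2 fold change 3.68), the enzyme that activates thyroid hormone, and Acot11 (2.25), an acyl-CoA thioesterase.

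Other genes published as beige markers did not share one direction. Among 11 such genes 1 passed an unadjusted p of 0.05 as higher and 2 as lower, and 8 passed in neither direction. Of all tested genes 7.45% passed as higher and 3.61% as lower. The median of the 11 genes was -0.00, and between -0.15 and 0.011 with each library left out in turn. Tbx15, a T-box factor of subcutaneous and brown fat, had 51.9 and 58.4 CPM in BML-260 A and B, against 23.5 and 31.5 CPM in vehicle A and B. Its log2 fold change was 1.003 (SE 0.18, edgeR adjusted p = 0.285, DESeq2 adjusted p = 0.00205). Car4, which encodes carbonic anhydrase 4, had -0.84 and the ubiquitin ligase adaptor gene Klhl13 had -0.35. Of 8 other classical brown genes 7 were tested, and 1 passed as higher, with a median of 0.33 that lay between 0.043 (without BML-260 B) and 0.44 (without vehicle B) with each library left out. That gene was Pdk4, a kinase that restrains glucose oxidation, with 295 and 338 CPM in BML-260 A and B, against 56.1 and 81.9 CPM in vehicle A and B (edgeR adjusted p = 0.216, DESeq2 adjusted p = 1.93e-17). It was followed by Hspb7, a small heat shock protein gene of heart and muscle, at 1.04, and Oplah, of glutathione metabolism, at 0.33. Pdk4 and Hspb7 are also expressed in skeletal muscle, whose markers were higher in the same libraries, and the part of muscle in them was not tested.

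White adipocyte markers had a median of -0.24 over 8 tested of 9. Of these 0 passed as higher and 2 as lower, beside 7.45% and 3.61% of all tested genes. The white marker median became -0.092 when BML-260 A was left out, -0.44 when BML-260 B was, and -0.11 when vehicle A was. It was 0.0026 with libraries scaled to adipocyte markers, where the median of all tested genes rose by 0.27. Hoxc8, a homeobox gene of posterior depots, had a log2 fold change of -0.41, and Retn, which encodes the adipokine resistin, had -0.69. Nnmt, which encodes a nicotinamide methyltransferase, had -0.28 and did not pass. None of these lists was tested as a set.

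**Figure D4:**
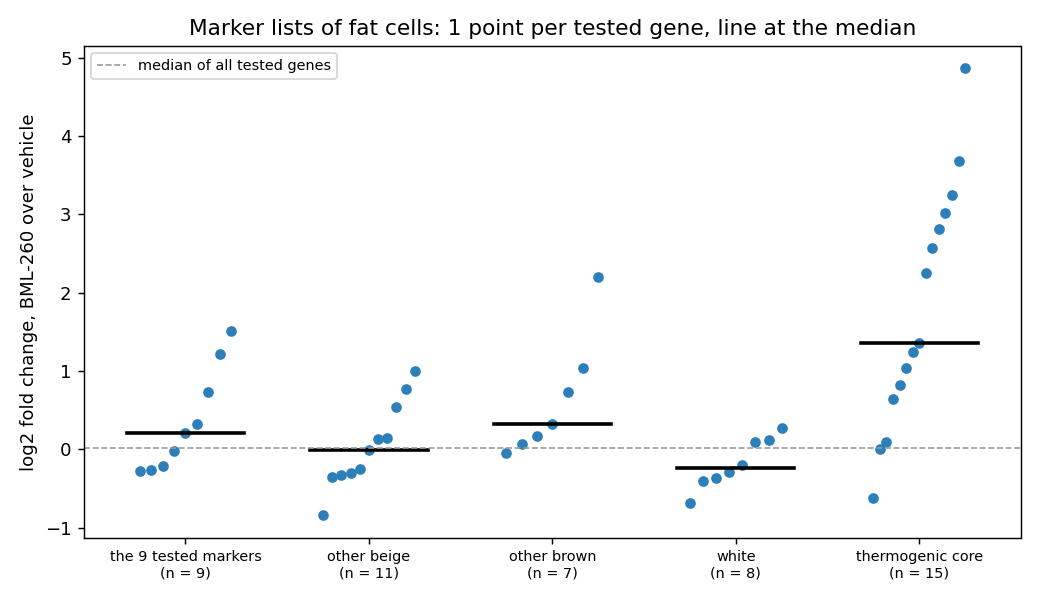
log2 fold change of each tested gene, BML-260 over vehicle, for the 9 tested markers and 4 related lists, with a line at each list's median and a dashed line at the median of all tested genes (0.02). The medians are 0.21 for the markers, -0.00 for other beige genes, 0.33 for other brown genes, -0.24 for white genes and 1.36 for the core thermogenic genes.

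Relatives and partners of the markers were listed as 51 genes, of which 25 were tested. Of these 1 passed as higher and 3 as lower, beside 7.45% and 3.61% of all tested genes. The median of the relatives was 0.02, or between -0.10 (without BML-260 A) and 0.14 (without vehicle B) with each library left out. Tbx4, another T-box gene, had a log2 fold change of 1.92 from a level under 1 CPM in every library. P2rx1, an ATP-gated channel of platelets and smooth muscle, had -1.09, the potassium channel gene Kcnk1 had -1.69 and Mpzl1 had -0.44. All 4 had edgeR adjusted p values between 0.389 and 0.436. Tnfsf9, which encodes the ligand of CD137, had 1.49 and 0.592 CPM in BML-260 A and B, against 0.997 and 1.69 CPM in vehicle A and B, with overlapping groups.

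Courses over the 4 libraries were compared by the Euclidean distance of centred log2 CPM, with 0.5 added to each CPM value. That addition shrinks the differences between libraries for genes of low CPM, such as C130036L24Rik and Gm26880. The genes nearest to Otop1 were Cxadr (distance 0.22), A330094K24Rik (0.24) and the mitochondrial gene mt-Co3 (0.29). Nearest to Tbx1 were Gm9821, C130036L24Rik (0.06 each) and Rcsd1 (0.09). Nearest to Tmem26 were B4galt6 (0.03), Gm26880 and Dnmt1 (0.07 each). Over 4 libraries a small distance says nothing of shared function or control.

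Among the lists of other cell types, 1 of 12 skeletal muscle genes was higher at an unadjusted p under 0.05, with all 12 estimates above 0 and a median of 2.74, which was 1.76 when vehicle A was left out and 6.57 when vehicle B was. For T and NK cells 2 of 13 were higher and for B cells 2 of 3 tested, with medians of 1.67 and 5.29. With each library left out, the T and NK cell median lay between -0.23 (without BML-260 A) and 2.60 (without vehicle B), and the B cell median between 0.56 (BML-260 A left out) and 6.25 (BML-260 B left out). The macrophage median was 0.26, and between -0.35 (BML-260 A left out) and 0.73 (BML-260 B left out). Of 6 genes each, 5 Schwann cell, 4 smooth muscle and pericyte, 2 endothelial and 1 macrophage gene were lower and 0 higher. Of 3 tested epithelial genes 1 was lower. Beside these counts, 7.45% of all tested genes were higher and 3.61% lower at that threshold. The Schwann cell markers summed to 194 and 336 CPM in BML-260 A and B, against 658 and 500 CPM in vehicle A and B. None of the 6 adipocyte genes passed in either direction, with a median of -0.29, which was -0.082 when BML-260 A was left out and -0.54 when BML-260 B was. The part of these cell types in the marker levels was not tested.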

How the data were processed

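Per the labels' protocols, total RNA was isolated with TRIzol reagent and libraries followed Illumina protocols. The authors deposited 1 table with expected counts per gene (estimated counts, not normalized) and FPKM values for 4 libraries, their group means (those of FPKM also as log2), and their own log2 fold change, p-value and adjusted p-value. Tools in the submitters' processing notes are RSEM 1.2.31, HISAT2 2.1.0 and DESeq2 1.10.1, with the build GRCm38.p5 and no role or order. No source used here gives the annotation, the read filters or whether strand was used.

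Expected counts were rounded, and filterByExpr kept 15643 genes. Treatments were compared in R 4.3.3 by the two-sided quasi-likelihood test of edgeR 4.0.16, with TMM scaling, a single term for treatment and Benjamini-Hochberg adjustment over all tested genes. It had 2 residual and 3.28 prior degrees of freedom. Standard errors are the log2 fold change over the square root of F. Alternatives were DESeq2 1.42.0, limma-voom (limma 3.58.1), other scaling, filters and rounding, each library left out, and the library letter as a term. The scripts were tested on simulated data. Libraries of a group were compared by a chi-square of their counts over genes, which per degree of freedom was 45.1 for BML-260 and 39.9 for vehicle, beyond counting error. Coordinates are from GENCODE vM21 (GRCm38) and promoters from RefSeq (GRCm38.p6). The markers and lists were chosen with earlier results of these data known. The genes named from other lists are the 3 with the smallest p (4 for relatives), with the 3 nearest in pattern to each of the 3 markers of smallest p. Tnfsf9, Zic4, Otop2 and Otop3 were added after their values were seen.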

Additional observations from a re-analysis of the deposited data

How the results depend on the processing

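The estimates of Otop1, Tbx1, Tmem26 and P2rx5 stayed above 0, and those of Slc36a2, Lhx8 and Kcnk3 below 0, under all 13 alternatives planned. With each library left out in turn, the number of markers past an unadjusted p of 0.05 was between 1 and 5, with 1 without vehicle A (Otop1) and 5 without BML-260 B (Otop1, Tbx1, Tmem26, Slc36a2 and Kcnk3), where 5.55% and 18.4% of all tested genes passed. The median of the markers was between 0.030, without vehicle A, and 0.38, without vehicle B. The number of genes called in the whole table was between 0 and 309, with 0 without vehicle A, 309 without vehicle B and 5 without BML-260 B. In these fits 1 group has a single library, assumed to vary like the others. Tnfrsf9 was between -0.54 (without BML-260 A) and 0.70, and Mpzl2 between -0.30 (without BML-260 B) and 0.20 (without BML-260 A), with 0.12 without vehicle B. DESeq2 called 405 genes and 1 marker, Otop1. Without a filter on low counts edgeR called 651 of 24481 tested genes and 1 marker, Otop1 (adjusted p = 5.44e-04). The cause was not tested. limma-voom gave a marker median of 0.082. The library letter as a block gave 0 called genes and a marker median of 0.12. The A minus B differences of the BML-260 and vehicle libraries were not related (r = -0.04 across genes). With a single such difference per treatment, this cannot show whether the letters mark a batch or a pairing. Scaling to the adipocyte markers, chosen after seeing the data, raised the median of all tested genes by 0.27, called 33 genes and 1 marker (Otop1, 1.77, adjusted p = 0.0417), gave a marker median of 0.54, and turned Mpzl2 to 0.21 and Kcnk3 to 0.024. By CPM per kilobase of annotated exons, 6 of 10 markers kept their rank in vehicle and 10 of 10 with BML-260. Depth limits Zic1 and Tnfrsf9 most, and the log2 ratio of Zic1 was between 0.60 and 3.37 with each library left out.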
